A study of Drosophila melanogaster with 12 samples.

Results

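Ionotropic receptor genes are a family of chemosensory receptor genes of insects, and 40 of them were measured here in heads of Drosophila melanogaster. They were taken as every gene of the deposited table whose FlyBase symbol begins with Ir followed by a digit, which gave 40 of the 11236 genes in the table. The reference gene list holds 66 such symbols, and the other 26 are not in the table. Every gene in the table has at least 1 read in every library. Heads came from 6 laboratory populations that had evolved for 117 generations, 3 under monogamy and 3 under polygamy. After 1 generation in a common environment, virgin flies were kept apart by sex and sampled at 4 days of age. This gave 12 mRNA libraries, 1 per population and sex, in 4 groups of 3, namely females and males of each mating system. Libraries of 1 group are separate populations, numbered 1 to 3 within each mating system. No treatment, genotype or strain beyond the mating system is named in the labels, and the number of heads per library is not given in the sources used here.

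Ionotropic receptors descend from ionotropic glutamate receptors and sit in the cilia of sensory neurons, where they detect acids, amines, salts, humidity and temperature. Each working receptor combines a tuned subunit, which sets the stimulus, with a co-receptor that many neurons share. In the fly head, olfactory members are used in the coeloconic sensilla and the sacculus of the antenna, humidity and temperature members in the sacculus and the arista, and many divergent members in taste neurons of the labellum and pharynx. A coeloconic sensillum houses a few neurons with fixed receptor sets, and its types are called ac1 to ac4. Because whole heads were sequenced, fewer sensory neurons and less RNA per neuron cannot be told apart.

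Recovered depth was 34558521 to 52282995 reads per library, of which 4629 to 8487 fell on the 40 genes. Values are normalised read counts, that is, reads divided by 1 size factor per library. The 40 genes summed to 5454 to 6098 in monogamous and 6153 to 7458 in polygamous females, and to 5503 to 5767 in monogamous and 6435 to 8307 in polygamous males. In both sexes every monogamous sum lay below every polygamous sum, and the sums were not tested. The female gap was narrow, with 6098 in monogamous population 3 and 6153 in polygamous population 2. Ir68a, which made up 19.4% of the signal, measured 1290 and 1347 in these libraries. The female separation therefore depended on that gene. Neuron, photoreceptor, glia, fat body, muscle and blood cell markers were above 0 in every library, as was every gene of the table. The female library of monogamous population 1 stood apart. Its 10 neuronal marker genes summed to 63049, against 204683 to 249272 in the other 5 female libraries. Of 26 receptor genes with enough signal to be tested, 12 were lowest in this library among the 6 female libraries and 5 were highest. Leaving it out moved many female changes, so the named female, sex and interaction values that moved by over 1.5 times are given both ways.

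Most receptor signal came from few genes. Ir68a, Ir25a, Ir76b and Ir75a made up 63.0% of the summed signal, and 12 of the 40 genes had a mean above 100. By role, the 4 co-receptors held 37.9%, the 10 antennal olfactory receptors 28.6%, the 3 humidity and temperature receptors 21.7% and the 23 taste and other divergent receptors 11.8%. Per kilobase of exon, which allows genes to be compared, the mean level was 504 for Ir68a, 396 for Ir76b, 349.7 for Ir75a, 322 for Ir25a, 156 for Ir62a and 155 for Ir75b. At the low end of the antennal genes it was 5.04 for the cooling receptor Ir21a. The 26 genes with a mean normalised count of 10 or more were tested. The other 14 were all taste or divergent receptors, with values of 1 to 17.9 and 1 to 18 reads per library. They include Ir7c, needed for avoidance of high salt, and Ir56b, needed for attraction to low salt. None of the 14 passed when they were tested without the limit on the mean. Among them, Ir20a measured 5.0, 5.80 and 4.69 in monogamous and 12.3, 9.31 and 17.9 in polygamous females, a change of -1.16 that did not pass (limma adjusted p = 0.268; chosen after its values were seen). Female groups did not overlap for 5 of the 14, with Ir20a, Ir94e, Ir7g and Ir10a lower and Ir7a higher under monogamy, all at few reads. Of all genes below the limit on the mean, 8.98% separated downward and 2.99% upward in females. In males 0 of the 14 separated downward and 1, Ir56b, upward, against 7.34% and 5.09%.

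**Figure D1:**
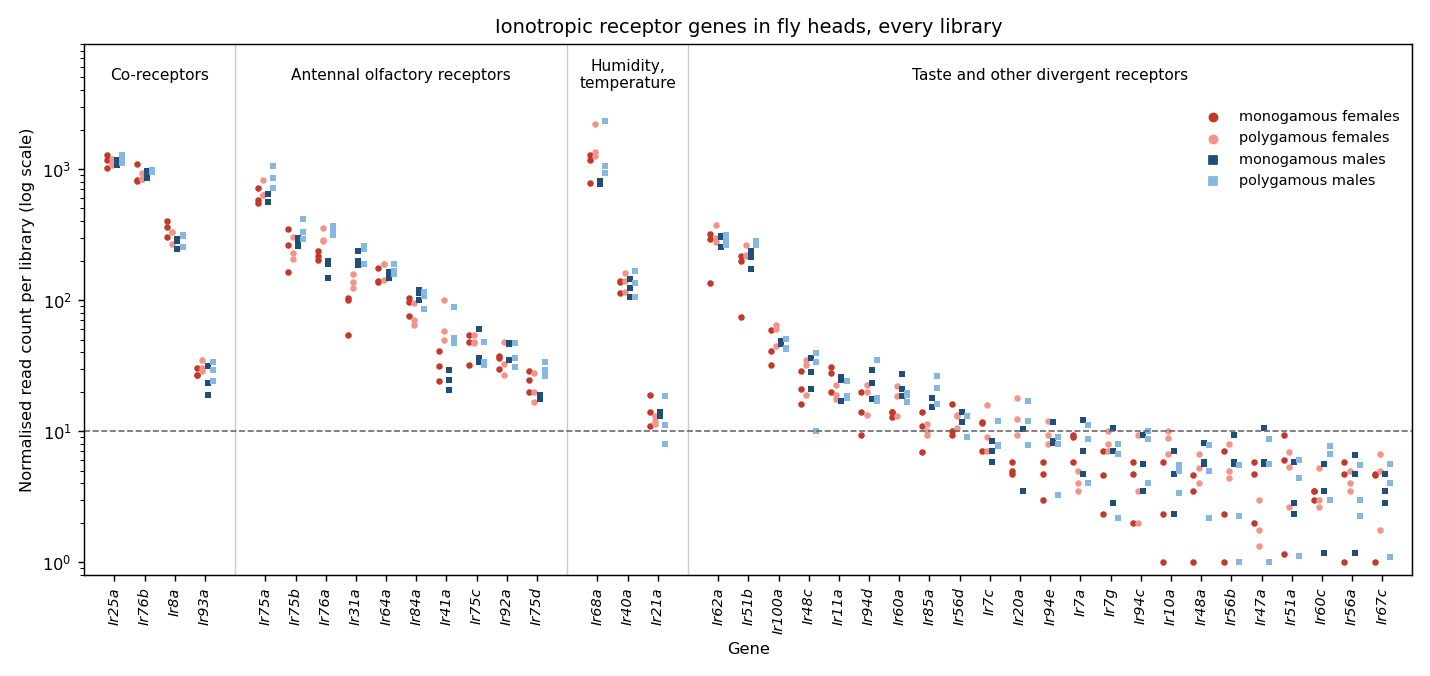
Normalised read count (log scale) of the 40 ionotropic receptor genes in each of the 12 libraries, ordered by role and by mean level; colours mark the 4 groups and the dashed line marks the mean of 10 needed for testing. Ir25a, Ir76b, Ir75a and Ir68a lie highest, and all genes with a mean below the line belong to the taste and divergent group.

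The co-receptors come first, since the other members depend on them. Ir25a (FBgn0031634), the co-receptor with the widest use, measured 1288, 1166 and 1025 in monogamous females of populations 1, 2 and 3, and 1121, 1079 and 1190.0 in polygamous females. In monogamous males it measured 1077, 1170 and 1119, and in polygamous males 1203, 1290.2 and 1115. The 4 groups overlapped. Ir76b (FBgn0036937), the co-receptor of amine and taste receptors, measured 1095, 824 and 805 in monogamous and 837, 833 and 939.6 in polygamous females. In males it measured 958, 885 and 861 under monogamy and 979.7, 988 and 952 under polygamy. Its highest value was in the female library that stood apart, and the groups overlapped. Ir93a (FBgn0259215), the co-receptor of humidity and temperature receptors, was far lower, at 27.0, 30.2 and 26.9 in monogamous females, 35.1, 30.6 and 28.9 in polygamous females, 31.5, 18.7 and 23.3 in monogamous males and 29.1, 33.9 and 24.0 in polygamous males. Ir8a (FBgn0052704), the co-receptor of acid receptors, measured 404, 363 and 303.5 in monogamous females and 329, 269 and 333 in polygamous females. It measured 282, 243 and 294 in monogamous males and 308, 253 and 313 in polygamous males, so that the sexes overlapped.

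Between mating systems, 0 of 4 co-receptors passed in either sex or over population means. Their log2 fold changes (monogamous minus polygamous, on the log2(value + 1) scale throughout) ran from -0.25 to -0.09 in males and from -0.16 to 0.20 in females. The 95% intervals reached from -0.74 to 0.24 in males and from -0.65 to 0.51 in females. These p-values missed the threshold, which does not show that the groups were alike. Without monogamous females of population 1 the female changes of Ir25a, Ir76b and Ir8a were -0.05, -0.09 and 0.11, against 0.03, 0.05 and 0.20 with it.

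Among the tuned olfactory receptors, Ir76a and Ir41a, which detect amines, were lower in all 6 monogamous libraries than in any of the 6 polygamous ones. They were the 2 of 26 tested receptor genes with this separation downward, and 0 separated upward. Ir92a, which also detects amines, overlapped between mating systems in both sexes. Over all 10568 genes tested, 1.64% separated downward and 0.975% upward. In males Ir76a passed the test, and Ir41a did not. Differences were tested with limma over all genes, with Benjamini-Hochberg adjustment and a threshold of 0.05.

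Ir76a (FBgn0260874) is the receptor of a neuron in ac4 sensilla that responds to phenylethylamine. In males it measured 198, 147 and 189 under monogamy and 315, 332 and 365 under polygamy. The lowest polygamous male library was above the highest monogamous one. The log2 fold change was -0.93 (SE 0.14, limma adjusted p = 0.0202), a ratio of 0.526. In females it measured 218, 200.8 and 236 under monogamy and 285, 289.8 and 357 under polygamy, again without overlap. There the change was -0.50 (SE 0.14) and did not pass (limma adjusted p = 0.234). The difference between the sexes in this change, -0.42 (SE 0.19), did not pass either (limma adjusted p = 0.727). Over population means it was -0.71 (SE 0.12, limma adjusted p = 0.248), and DESeq2 on summed reads called it (adjusted p = 0.000264).

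In males Ir76a was the 1 of 26 receptor genes called, against 0.104% of all genes called lower, 0.539% called higher and 0.643% called in either direction. At an unadjusted p under 0.05 there were 4 of 26, against 11.5% of all genes. The call did not hold when any 1 of the 6 male libraries was left out, with limma adjusted p = 0.0578 to 0.0937 and changes of -1.01 to -0.79. In these fits 6 to 10 genes of the whole table were called higher and 0 to 1 lower, against 57 and 11 with all libraries. An exon of Ir76a overlaps an exon of CG14102 on the opposite strand in a later annotation, and the sources used here do not say whether reads were counted by strand. CG14102 measured 299 ± 8.09 in monogamous and 327 ± 17.6 in polygamous males (n = 3), a log2 fold change of -0.13 (limma adjusted p = 0.661). Without counting by strand, reads from the stretch that the 2 genes share cannot be told apart.

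Ir41a (FBgn0040849), a polyamine receptor of ac2 sensilla, showed the largest ratio between mating systems among the tested receptor genes. It measured 29.2, 20.6 and 24.5 in monogamous males and 88.6, 51.4 and 47.0 in polygamous males. The corresponding values were 24.0, 31.3 and 41.0 in monogamous females and 99.3, 58.5 and 49.9 in polygamous females. Neither sex overlapped, and polygamous population 1 was highest in both. The log2 fold change was -1.25 in males (SE 0.32, limma adjusted p = 0.119) and -1.05 in females (SE 0.32, limma adjusted p = 0.235), and neither passed. In males it passed with DESeq2 (-1.31, adjusted p = 0.0298) and when monogamous females of population 1 did not enter the shared spread (limma adjusted p = 0.0371). Both settings called more genes over the whole table. DESeq2 called 314 higher and 86 lower, and the fit without that library 488 and 373, against 57 and 11 in the main fit. Without polygamous males of population 1 the male change was -0.97 (limma adjusted p = 0.337). Over population means the change was -1.15 (SE 0.27, limma adjusted p = 0.276), and DESeq2 called it (adjusted p = 0.0189).

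**Figure D2:**
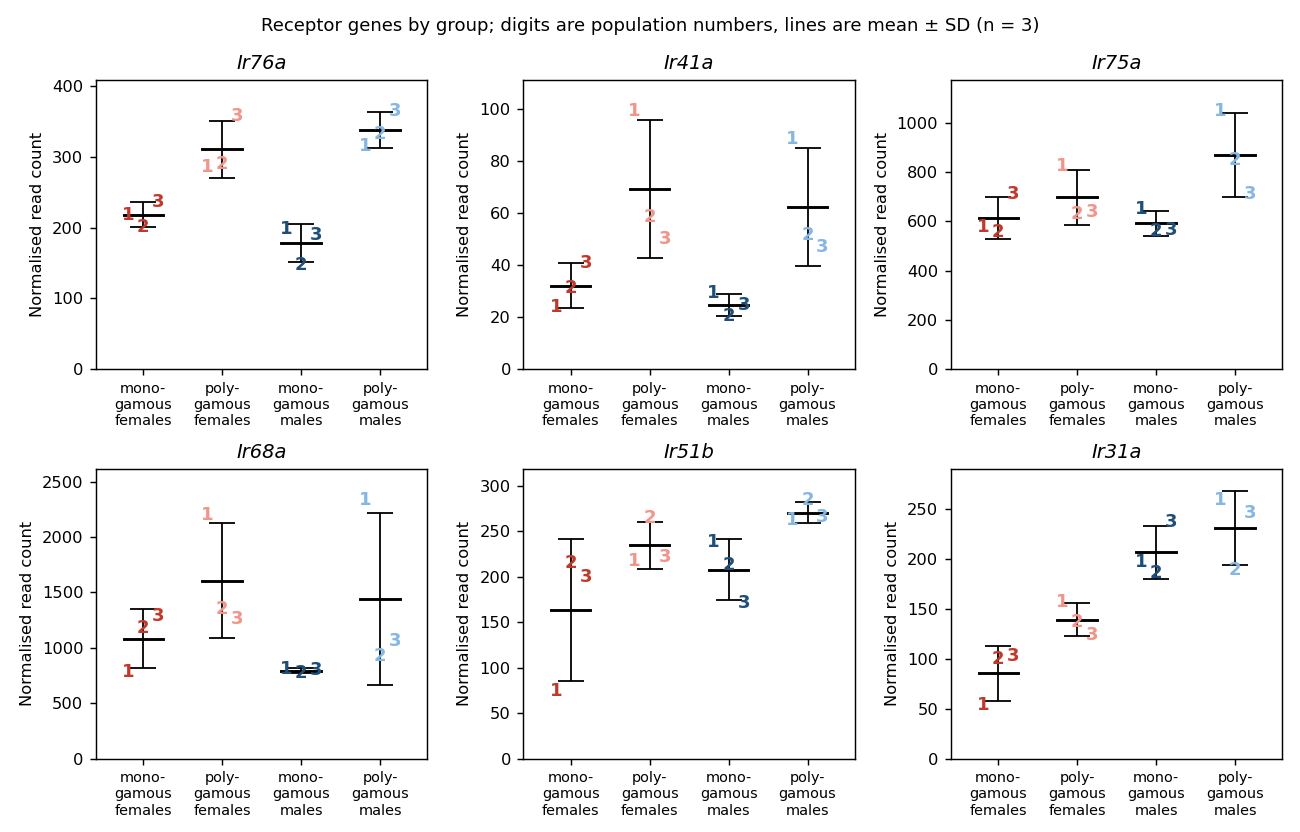
Normalised read count of 6 receptor genes by group, with digits for the population number and lines for the mean ± SD (n = 3 libraries). Ir76a and Ir41a are lower in every monogamous library than in every polygamous library, Ir68a is highest in polygamous population 1 in both sexes, and Ir31a is higher in every male than in every female library.

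Receptors that share a sensillum with these 2 genes were compared beside them. Ir84a (FBgn0037501), which detects phenylacetaldehyde in ac4 sensilla and promotes male courtship, measured 100.3, 113 and 120.2 in monogamous males and 85.2, 115 and 108 in polygamous males. The groups overlapped, and the log2 fold change was 0.12 (95% interval -0.29 to 0.54, limma adjusted p = 0.927), while that of Ir76a had an interval of -1.23 to -0.63. The difference between these 2 genes was not tested. In females Ir84a had a change of 0.27 (95% interval -0.15 to 0.68). It was 0.41 without monogamous females of population 1, 0.17 without those of population 3, 0.15 without polygamous females of population 1 and 0.43 without those of population 3. Ir75d (FBgn0036829), found in ac1, ac2 and ac4 sensilla, measured 17.5, 18.7 and 18.7 in monogamous and 29.1, 26.3 and 34.0 in polygamous males, without overlap. Its change of -0.67 (SE 0.23) did not pass (limma adjusted p = 0.278), and polygamous males were higher in each library. Females overlapped, at 29.0, 24.4 and 19.9 under monogamy and 16.7, 19.9 and 27.9 under polygamy, a change of 0.19. Single libraries decided that value, which was 0.06 without monogamous females of population 1, 0.03 without polygamous females of population 1, 0.32 without monogamous and 0.39 without polygamous females of population 3. Of all 26 tested receptor genes Ir75d had the smallest p for a difference of the mating change between the sexes, -0.86 (SE 0.33), which did not pass (limma adjusted p = 0.727). Its exons overlap those of Prp6 on the opposite strand, which measured 790.1 ± 59.3 in monogamous and 766 ± 34.9 in polygamous males.

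None of the acid receptors of the antenna passed between mating systems. Ir75a (FBgn0036757), a receptor of acetic acid in ac2 sensilla, measured 649, 561 and 565 in monogamous males and 1048, 850.3 and 710.4 in polygamous males. These groups did not overlap, and the log2 fold change was -0.54 (SE 0.16, limma adjusted p = 0.184). In females the groups overlapped, at 578, 555 and 711 under monogamy and 823, 630.1 and 636 under polygamy. Ir75b and Ir75c, neighbours of Ir75a that detect other short-chain acids, had male changes of -0.31 and 0.17. Ir64a, the acid receptor of the sacculus, had -0.12 in males and -0.19 in females, where it kept its sign without the library that stood apart. Ir92a, an amine receptor of ac1 sensilla, stood at 0.17 and -0.01, the latter 0.08 without that library. In all, 7 of 10 olfactory receptors were negative in males with a median of -0.23, and 7 of 10 in females with a median of -0.18, which became 5 of 10 and -0.05 without that library. The median over all genes was -0.02 in males and -0.03 in females.

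Ir31a (FBgn0051718), a receptor of a keto acid in ac1 sensilla, separated the female groups. It measured 54.0, 99.8 and 103 there and 157, 137 and 124 in polygamous females, with every monogamous value below every polygamous one. The change of -0.75 (SE 0.24) did not pass (limma adjusted p = 0.235). It was -0.45 without monogamous females of population 1, the lowest of all 12. In males the mating groups overlapped and the change was -0.16 (SE 0.24, limma adjusted p = 0.926).

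Of the humidity and temperature receptors, Ir68a varied most between populations. Ir68a (FBgn0036150), which neurons for moist air need, measured 2201 in females and 2334 in males of polygamous population 1. Every other library lay between 769 and 1347. Monogamous males were close together, at 807, 769 and 803, and polygamous males of populations 2 and 3 stood at 928 and 1059. The male change was -0.73 (SE 0.34, limma adjusted p = 0.447), and -0.32 without polygamous males of population 1. Ir68a was singled out after its values were seen. Ir40a, needed for sensing dry air, had changes of -0.10 in males and -0.09 in females, and Ir21a had 0.19 and 0.22. Without monogamous females of population 1 the female changes were 0.01 for Ir40a, 0.39 for Ir21a and -0.33 for Ir68a, against -0.55 for Ir68a with it. None of these 3 genes passed in any of the 5 comparisons, and without polygamous males of population 1 Ir68a was called between the sexes.

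Among the taste and divergent receptors 0 of 9 tested genes passed between mating systems. Ir51b (FBgn0050081) measured 238, 214 and 172 in monogamous and 262, 285 and 266 in polygamous males, without overlap, a change of -0.39 (SE 0.33, limma adjusted p = 0.764). In females it measured 74.0, 216 and 200.4 under monogamy and 217, 265 and 222 under polygamy. The change there was -0.66, and -0.17 without monogamous females of population 1. Ir62a (FBgn0053971), needed for the avoidance of calcium, measured 134 in that library and 278 to 371 in the other 5 female libraries. In males it measured 289 ± 29.7 under monogamy and 286 ± 25.5 under polygamy (n = 3), a change of 0.01 (95% interval -0.60 to 0.62).

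Across the family, 6 of 26 genes had non-overlapping groups downward in males (Ir76a, Ir41a, Ir51b, Ir75a, Ir75d and Ir68a) and 0 upward, where 18.1% and 13.7% of all tested genes did. In females the counts were 4 downward (Ir76a, Ir41a, Ir31a and Ir51b) and 0 upward, against 14.7% and 8.9%. Without the library that stood apart, 5 separated downward (Ir76b added) and Ir84a and Ir21a upward, against 24.3% and 12.4% of all genes. By limma 0 of 26 passed in females, where 0% of all genes did. At an unadjusted p under 0.05 there were 3 of 26, against 17.7% of all genes, and edgeR and DESeq2 both called 0 of 26. Over all genes in females edgeR called 0, and DESeq2 called 209 higher and 61 lower. Over population means limma called 0 of 26 and edgeR 0, and DESeq2 called Ir76a and Ir41a. Over all genes DESeq2 called 282 higher and 104 lower there, and limma and edgeR 0. By limma, 5 of 26 had an unadjusted p under 0.05 over population means, against 14.2% of all genes. Population means separated downward for 6 genes and upward for Ir11a, against 17.3% and 11.4% of all genes. Positive changes numbered 11 of 26 in males, 9 of 26 in females and 6 of 26 over population means, where 43.7%, 45.9% and 43.7% of all genes were positive. The comparisons within each sex enter the population means, so these counts are not independent.

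**Figure D3:**
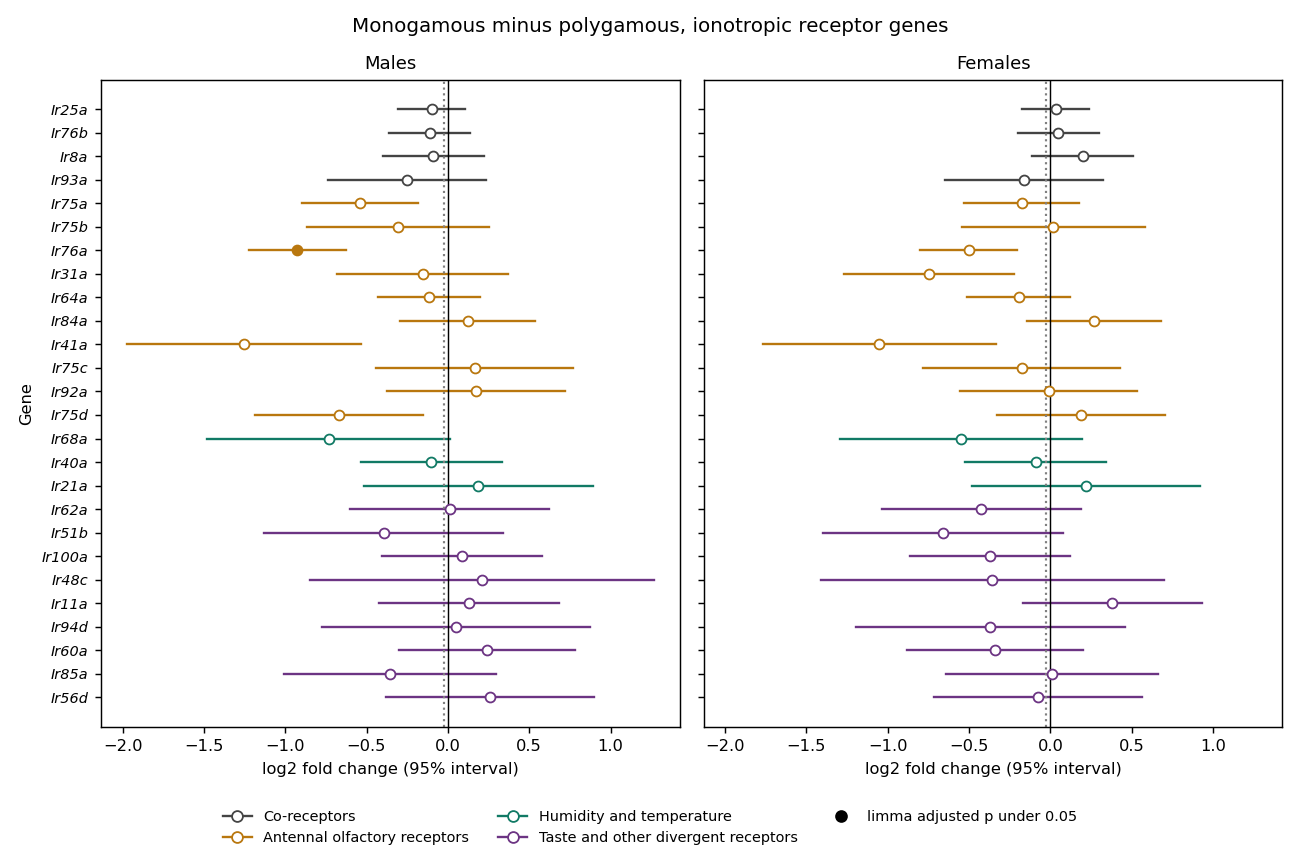
Log2 fold change, monogamous minus polygamous, with 95% intervals for the 26 tested receptor genes in males and females; filled points passed the test and the dotted line is the median over all 10568 genes. Ir76a in males is the filled point, at -0.93, and Ir41a has the lowest estimates in both sexes, at -1.25 and -1.05.

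Markers of the antenna were compared beside these values. The 12 antennal support and odorant-binding genes in the table summed to 158455 to 170855 in monogamous and 148738 to 194838 in polygamous females. In males the sums were 179790.4 to 212265 under monogamy and 209241 to 234803 under polygamy. In males 0 of 12 had a positive change, against 43.7% of all genes, with a median of -0.31. In females 4 of 12 were positive, against 45.9%, with a median of -0.05. None passed in either sex. The 6 genes of coeloconic sensilla, whose sum is mostly Rh50, summed to 9923 to 10851 in monogamous and 8374 to 8975 in polygamous males, and 2 of 6 had a positive change. In that list Rh50, an ammonium transporter gene, was called higher in monogamous males, at 6733 ± 581 against 4699 ± 184 (n = 3; log2 fold change 0.52, limma adjusted p = 0.0337). Or35a, an odorant receptor of ac3 sensilla, had a male change of -0.79 (limma adjusted p = 0.178). Obp84a, which is in both lists, had a male change of -0.63 (limma adjusted p = 0.477). In females Obp84a measured 20.8 ± 7.98 under monogamy and 36.2 ± 6.06 under polygamy (n = 3), which did not pass. In females 3 of 6 genes of coeloconic sensilla were positive, and 2 of 6 without monogamous females of population 1. Some glia and blood cell markers were higher in monogamous males, in the same comparison as Ir76a. All 8 glia genes had a positive change with a median of 0.35, and Gat (0.77), nrv2 (0.52) and Mdr65 (0.36) passed (limma adjusted p = 0.0186, 0.0392 and 0.0493). All 5 blood cell genes were positive with a median of 0.82, and NimC1 (1.19) and Hml (0.86) passed (limma adjusted p = 0.00491 and 0.0392). Glia genes summed to 217747 to 248872 in monogamous and 169637 to 180568 in polygamous males, and blood cell genes to 9321 to 10248 and 6857 to 7867. In females 5 of 8 and 4 of 5 were positive and 0 passed. None of these markers was at 0 in any library, which holds for every gene of the table. Their part in the receptor differences was not tested.

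Sex was the second axis. Male and female libraries were compared over all populations, and 2 of 26 receptor genes were higher in males and 0 lower, where 20.2% of all genes were called higher and 9.27% lower, 29.5% in all. At an unadjusted p under 0.05 there were 4 of 26, against 43% of all genes. Rescaling mattered here. The median change of all genes was 0.13 with the deposited values and 0.01 after rescaling with trimmed mean of M-values (TMM) factors, and the calls over all genes went from 2139 higher and 980 lower to 836 higher and 1522 lower. Receptor genes that passed or lay close to the threshold are therefore also given relative to that median.

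Ir31a was higher in every male than in every female library, at 197, 186 and 237 in monogamous and 259, 189 and 246 in polygamous males. Females, given above, reached 157 at most. The log2 fold change, male minus female, was 1.02 (SE 0.17, limma adjusted p = 0.00171), a ratio of 2.02. Relative to the median of all genes it was 0.89, with deposited and with TMM-rescaled values. It passed under each alternative tried, with changes of 0.87 to 1.10, also without monogamous females of population 1 (0.87). Within monogamy the difference was 1.31 and within polygamy 0.72, and the difference between these, 0.59 (SE 0.33), did not pass (limma adjusted p = 0.727). That difference was 0.29 without monogamous females of population 1.

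Ir85a (FBgn0037630) was also higher in all males, at 15.2, 17.8 and 15.2 under monogamy and 21.3, 26.3 and 16.0 under polygamy. Females had 11, 6.96 and 14.1 under monogamy and 11.4, 9.31 and 9.97 under polygamy. These values rest on 6 to 24 reads per library. The log2 fold change was 0.78 (SE 0.21, limma adjusted p = 0.0186) and 0.65 relative to the median of all genes. The gap between the sexes was narrow, from 14.1 to 15.2. Upper-quartile rescaling (0.64, limma adjusted p = 0.0694), DESeq2 (0.72, adjusted p = 0.0759) and leaving out polygamous males of population 2 (0.69, limma adjusted p = 0.0516) ended the call. Exons of Ir85a overlap those of Pif1A on the opposite strand, which had a change of 0.34 (limma adjusted p = 0.0798). The 2 separated genes were Ir31a and Ir85a, where 15.2% of all genes separated upward in males, and 0 receptor genes separated downward, where 4.99% did.

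Ir8a and Ir84a lay close to the threshold, and Ir76b passed when 1 library was left out. The change of Ir76b was 0.08 (limma adjusted p = 0.441), below the median of 0.13 over all genes. It was 0.15 without monogamous females of population 1 (limma adjusted p = 0.0173), where the median over all genes was 0.12. The fit without that library called 4252 genes of the whole table higher and 1208 lower, against 2139 and 980 in the main fit. The call of Ir76b therefore came with a change close to that of the median gene. Ir8a had a change of -0.23 (SE 0.10, limma adjusted p = 0.0958), and -0.36 relative to the median of all genes. It was called lower in males after TMM rescaling (-0.35, limma adjusted p = 0.0247), after upper-quartile rescaling (-0.38, limma adjusted p = 0.0438), by edgeR (adjusted p = 0.0222) and by DESeq2 (adjusted p = 0.00865). Ir84a had a change of 0.36 (SE 0.13, limma adjusted p = 0.0652), and it passed with each population's male and female libraries paired as a replicate block (limma adjusted p = 0.0335). Relative to the median of all genes it was 0.23. In females it measured 75.0, 96.3 and 104 under monogamy and 64.2, 70.5 and 94.8 under polygamy, which overlaps the male values given above. Over the 26 tested genes 15 were positive, against 69.1% of all genes, with a median of 0.04, below the median of 0.13 over all genes. Without monogamous females of population 1 there were 12 positive and a median of -0.01. By role the median was 0.09 for olfactory receptors, 0.09 for taste and divergent receptors, -0.05 for humidity and temperature receptors and -0.07 for co-receptors. Without that library these medians were 0.11, -0.02, -0.12 and -0.06.

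**Figure D4:**
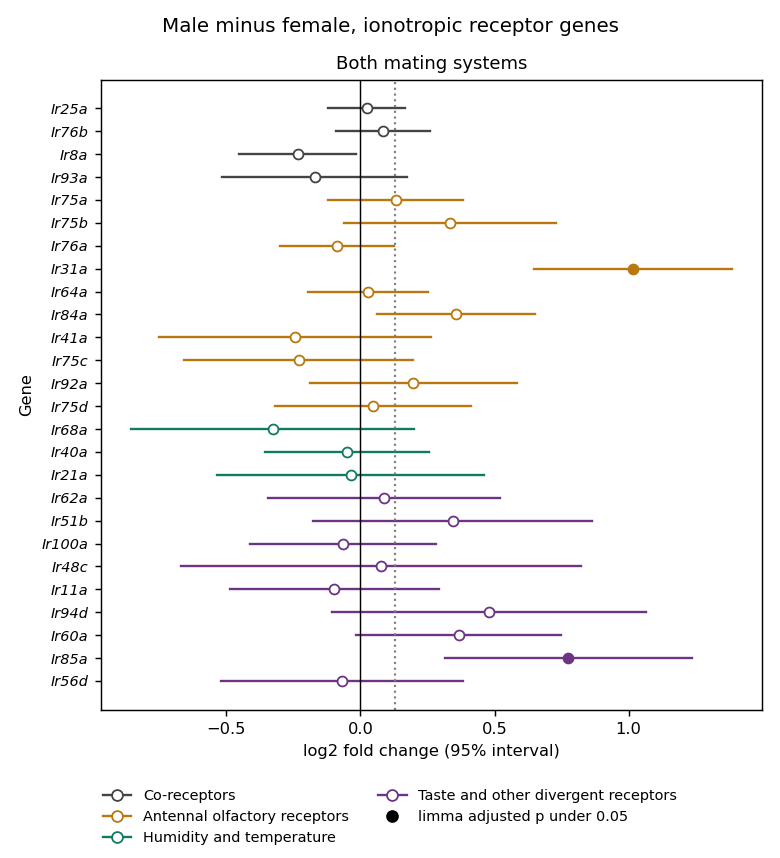
Log2 fold change, male minus female over all 6 populations, with 95% intervals for the 26 tested receptor genes; filled points passed the test and the dotted line is the median over all genes (0.13). Ir31a (1.02) and Ir85a (0.78) are filled, and most other intervals cross 0.

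Whether the mating difference depended on sex was tested as an interaction. Limma called 0 of 26 receptor genes and 0% of all genes, edgeR and DESeq2 called 0 of 26, and at an unadjusted p under 0.05 there was 1 of 26 by limma, Ir75d, against 5.45% of all genes. Over all genes edgeR called 0 interactions, and DESeq2 called 49 positive and 14 negative. The interaction was positive for 11 of 26, and for 51.8% of all genes. Besides Ir75d, the smallest p-values belonged to Ir76a and Ir31a, given above.

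The same population was highest in both sexes for 10 of 26 receptor genes, and for 29.0% of all tested genes. Polygamous population 1 was that population for Ir41a, Ir31a, Ir75a and Ir68a, and polygamous population 3 for Ir76a and Ir64a. It was polygamous population 2 for Ir51b and Ir94d, monogamous population 3 for Ir84a and monogamous population 2 for Ir56d. The lowest population was shared for 6 of 26 genes, and for 28.3% of all tested genes. Monogamous population 2 was lowest in both sexes for Ir76a and Ir75a, monogamous population 1 for Ir64a and monogamous population 3 for Ir76b. Polygamous population 1 was lowest for Ir84a and polygamous population 2 for Ir92a.

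Related receptor families were described in the same way. Over all genes tested, 20.2% were called higher and 9.27% lower in males than in females. Between mating systems 0.643% of all genes were called in males and 0% in females, and 43.7% had a positive change in males. Of 12 tested ionotropic glutamate receptor genes, the synaptic relatives of the family, 0 passed between mating systems in either sex, and 3 were higher in males than in females. These were Grik (0.56, limma adjusted p = 0.00041), Nmdar1 (0.43, limma adjusted p = 0.00175) and GluRIA (0.23, limma adjusted p = 0.00978). Relative to the median of all genes the changes were 0.44, 0.30 and 0.10, and GluRIA did not pass after TMM rescaling (limma adjusted p = 0.158). The median change of the 12 genes between mating systems was -0.02 in males and -0.21 in females, and -0.03 in females without monogamous females of population 1. All 13 in the table summed to 11294 in that library and to 17281 to 18951 in the other 5 female libraries. Of 49 tested odorant receptor genes, 0 passed between mating systems in males, with a median of -0.29 and 6 positive, and 5 were higher and 6 lower in males than in females. Of 20 tested gustatory receptor genes 0 passed between mating systems, with a median of -0.20 in males, and 3 were higher in males than in females (Gr33a, Gr28b and Gr77a). Of 8 tested taste organ genes 0 passed between mating systems, with a median of -0.17 and 0 positive in males.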

How the data were processed

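The deposited table gives a signal per gene and library. Per the submitters' processing notes, TopHat2, HTSeq and DESeq2 were used with genome build BDGP5, with versions, parameters and strand setting not given in the sources used here. Per the labels' protocols, an Illumina mRNA-Seq kit was used on RNA from dissected heads. The deposited signal of each library is whole reads divided by 1 size factor, rounded to 2 decimals; dividing by the value of 1 read gave whole reads for 100% of values (tolerance 0.1 reads). No value in the table was 0. Symbols were found for 10781 of 11236 identifiers. Exon lengths and overlaps come from a later annotation (BDGP6), so no coordinates are given.

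Values were analysed as log2(value + 1) with limma 3.58.1 in R 4.3.3 (eBayes with trend) on the 10568 genes with a mean of 10 or more, with 1 mean per group over all 12 libraries, or on 6 population means. P-values were adjusted over all genes and called under 0.05; they measure the spread between populations and between libraries together. The spread is shared by the 4 groups. Alternatives were TMM and upper-quartile rescaling, edgeR 4.0.16 and DESeq2 1.42.0 on recovered reads, a pseudocount of 10, no filter, only the groups compared, no trend, a replicate block, and leaving out each library or population. Scripts were tested on simulated data. Within a mating system, a number names a population, so its male and female libraries are paired. The main tests had no population term. In the alternative with a replicate block, the block was the population for sex and the interaction, and the library number for comparisons of mating systems. Within a population, the residuals of male and female libraries had correlations of 0.0908 to 0.474 (6 populations). The labels do not say that a number pairs populations across mating systems. Residuals of libraries with the same number but the other mating system and sex had correlations of -0.0302 to 0.374 (mean 0.183). The mean within populations was 0.217. With the same number and sex but the other mating system they were -0.124 to 0.146 (mean 0.0394). Whether the number carries a shared effect was not tested. Leaving out the female library that stood apart was extended to all receptor genes and lists after seeing the data. The text names the co-receptors, genes that passed, and the 3 smallest p-values per comparison; others were chosen after their values were seen. The genes and lists were chosen with earlier results of these data known. Unused columns numbered 0.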

Additional observations from a re-analysis of the deposited data

How the results depend on the processing

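Among the receptor genes, the count called between mating systems in males was 1 under 8 of the 9 alternatives to the test, scaling or filter and 2 with DESeq2 on recovered reads (Ir76a and Ir41a). Leaving out each library gave 0 to 2, with 0 for each of the 6 male libraries and 2 (Ir76a and Ir41a) without monogamous females of population 1. Calls over all genes moved too, from 57 higher and 11 lower in the main fit. They were 6 to 10 higher and 0 to 1 lower without a male library, and 488 and 373 without that female library. Over population means DESeq2 on summed reads called 2 and the other alternatives 0. In females and for the interaction the count was 0 under every alternative run. For sex the count ranged from 2 to 3 over the alternatives, and leaving out each library gave 1 to 4, with 4 (adding Ir84a and Ir68a) without polygamous males of population 1 and 1 (Ir31a) without polygamous males of population 2. Over all genes these 2 fits called 1707 higher and 918 lower, and 1569 and 808, against 2139 and 980 in the main fit. The male change of Ir84a between mating systems ranged from -0.0049 to 0.21 when single libraries were left out, and was negative without polygamous males of population 1; the cause of these shifts was not tested. With each population as a replicate block the sex comparison called 3 receptor genes, adding Ir84a, and the block (the library number, for comparisons of mating systems) changed no other call among the receptor genes. Without the limit on the mean, 40 receptor genes were tested in place of 26. Those at an unadjusted p under 0.05 numbered 6 in place of 3 in females and 3 in place of 1 for the interaction. Among the 14 genes with few reads, these were Ir20a, Ir94e and Ir10a in females, and Ir94e and Ir56b for the interaction.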
